A study of Mus musculus with 20 samples.

Results

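Tuft cell genes were followed across 20 mouse intestinal RNA-seq libraries to see whether Avil moved with the other genes of the set or apart from them. The set comprised 9 genes named by symbol: Avil, Pou2f3, Gfi1b, Trpm5, Gnat3, Il17rb, Dclk1, Alox5ap and Sh2d6. Of these, 8 had a row among the 24795 genes of the table, and the level of Sh2d6 was not analysed here. The libraries fell into 3 groups: 7 from untreated WT mice, 7 from control-treated Apc Min mice and 6 from Apc Min mice treated with DM-aKG, the membrane-permeable dimethyl ester of α-ketoglutarate. Apc Min mice carry a germline truncating allele of Apc, a brake on Wnt signalling, and develop intestinal adenomas. The labels of all groups name low glutamine medium and organoid medium, and they give no dose, duration or age. Smooth muscle markers, known from the gut wall and not from its epithelium, summed to 739 to 1317 RPKM in WT, 308 to 1115 RPKM in control and 640 to 1239 RPKM with DM-aKG. Titles call the samples tissue while other fields call them intestinal organoids, and the labels do not tie the libraries of a group to different animals, which means that a p-value here reflects the spread among libraries, possibly technical.

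Tuft cells are rare chemosensory cells of the intestinal epithelium. They detect luminal signals with a taste-type cascade that ends in the cation channel Trpm5, and they release IL-25 and lipid mediators that act on lymphoid cells of the mucosa. The POU factor Pou2f3 is needed for their formation, and Avil (advillin), an actin-bundling protein of the villin and gelsolin family, is widely used as a tuft cell marker that is also known from sensory neurons.

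Avil rose in Apc Min control libraries and was far lower in DM-aKG libraries, and no other gene of the set followed it. Mean Avil was 2.18 ± 0.47 RPKM (SD, n = 7) in WT, 27.8 ± 5.68 RPKM (SD, n = 7) in Apc Min control libraries and, with DM-aKG, 4.39 ± 3.23 RPKM (SD, n = 6). RPKM, reads per kilobase of gene scaled to the reads of the library, is a level per length, so genes can be compared on it. Trpm5 fell in Apc Min control against WT. Since these are bulk samples, fewer tuft cells and less RNA per tuft cell cannot be told apart.

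In Apc Min control against WT, 1 gene of the 8 tested rose (Avil) and 1 fell (Trpm5), in a comparison that called 55.7% of 15742 genes, 40.4% as higher and 15.2% as lower. With DM-aKG against control, 1 of 8 fell (Avil) and 0 rose, where 31.1% of all genes were called, 24.6% as lower and 6.47% as higher. With DM-aKG against WT, 0 of 8 passed by limma, where 37.3% of all genes did, 21.8% as higher and 15.5% as lower. At an unadjusted p under 0.05 there, 1 of the 8 differed (Avil). The 3 comparisons share libraries. Over the 7 genes other than Avil the median log2 change was -0.17 from WT to control, beside 0.23 over all genes, and 0.38 from control to DM-aKG, beside -0.15 over all genes.

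The windows of 250 bases before the start of Avil, Trpm5 and Dclk1 are shown because Avil departed from the set, Trpm5 changed in the opposite direction and Dclk1 is the classical marker, whose level differed in no comparison past the threshold. They are RefSeq sequences of build GRCm38.p6, printed 5′ to 3′ on the strand of the gene. Avil is at chr10:127000459-127000708 on the plus strand, Dclk1 at chr3:55242114-55242363 on the plus strand and Trpm5 at chr7:143094643-143094892 on the minus strand. Capitals in Avil mark ATGCAAA and its reverse complement TTTGCAT, the first 7 letters of the POU octamer ATGCAAAT. Capitals in Dclk1 mark the TCF/LEF core CTTTGAT, and the Trpm5 window held none of these.
Avil: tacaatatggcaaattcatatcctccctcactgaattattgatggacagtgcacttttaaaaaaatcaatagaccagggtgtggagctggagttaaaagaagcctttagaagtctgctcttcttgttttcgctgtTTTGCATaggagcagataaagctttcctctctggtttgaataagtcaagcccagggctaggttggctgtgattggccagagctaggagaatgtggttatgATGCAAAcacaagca
Trpm5: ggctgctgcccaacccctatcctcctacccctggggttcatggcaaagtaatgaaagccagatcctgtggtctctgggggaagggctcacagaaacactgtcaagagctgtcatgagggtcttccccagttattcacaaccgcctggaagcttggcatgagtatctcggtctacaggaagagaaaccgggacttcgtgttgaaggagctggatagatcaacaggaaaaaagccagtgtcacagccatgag
Dclk1: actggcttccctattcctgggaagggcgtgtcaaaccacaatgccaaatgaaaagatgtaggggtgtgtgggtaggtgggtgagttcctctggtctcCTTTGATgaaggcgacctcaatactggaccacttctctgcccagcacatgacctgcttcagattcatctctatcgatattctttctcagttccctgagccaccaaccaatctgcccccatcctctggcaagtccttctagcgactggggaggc

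Both strands were searched in 8 such windows of 7 genes of the set, Dclk1 having a second start; Pou2f3 and Alox5ap were not matched. The full octamer was in 0 of the 8 windows and in 1.6% of 32851 windows of all genes. Its first 7 letters, a search chosen after the Avil sequence was seen and contained in the octamer, were in 1 of the 8 windows and in 4.12% of all windows. In Avil they began at -115 on the minus strand and at -15 on the plus strand, counted from the start. The TCF/LEF core was in 1 of the 8 windows, at -153 of Dclk1, and in 3.21% of all windows. A match describes letters only.

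Avil lies on chromosome 10 at 127000709 to 127020994 of mm10 (GENCODE M21), on the plus strand. It was lowest at 1.53, median 2.19 and highest 2.83 RPKM in WT. In Apc Min control libraries it was lowest at 17.7, median 28.8 and highest 36.8 RPKM. In DM-aKG libraries it was lowest at 1.54, median 3.47 and highest 10.1 RPKM. The control libraries overlapped neither of the other groups, and 4 of the 6 DM-aKG libraries lay above every WT library. Avil was 12.2-fold higher in control than in WT libraries (log2 change of RPKM + 0.1, 3.61 ± 0.30 SE, limma adjusted p = 9.45e-09). It was 7.48-fold lower with DM-aKG than in control (log2 change -2.90 ± 0.31 SE, limma adjusted p = 1.06e-06). Between DM-aKG and WT libraries the log2 difference was 0.71 (95% interval 0.05 to 1.36, limma adjusted p = 0.0804), which did not pass. That last value passed without DM-aKG replicate 1 (0.94, limma adjusted p = 0.0191) or without replicate 6 (0.90, limma adjusted p = 0.026), and was 0.41 without replicate 2. Over subsets of the libraries the difference was 1.13 over replicates 1 to 4 only (limma adjusted p = 0.0775) and -0.06 over replicates 5 to 7 only (limma adjusted p = 0.874).

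**Figure D1:**
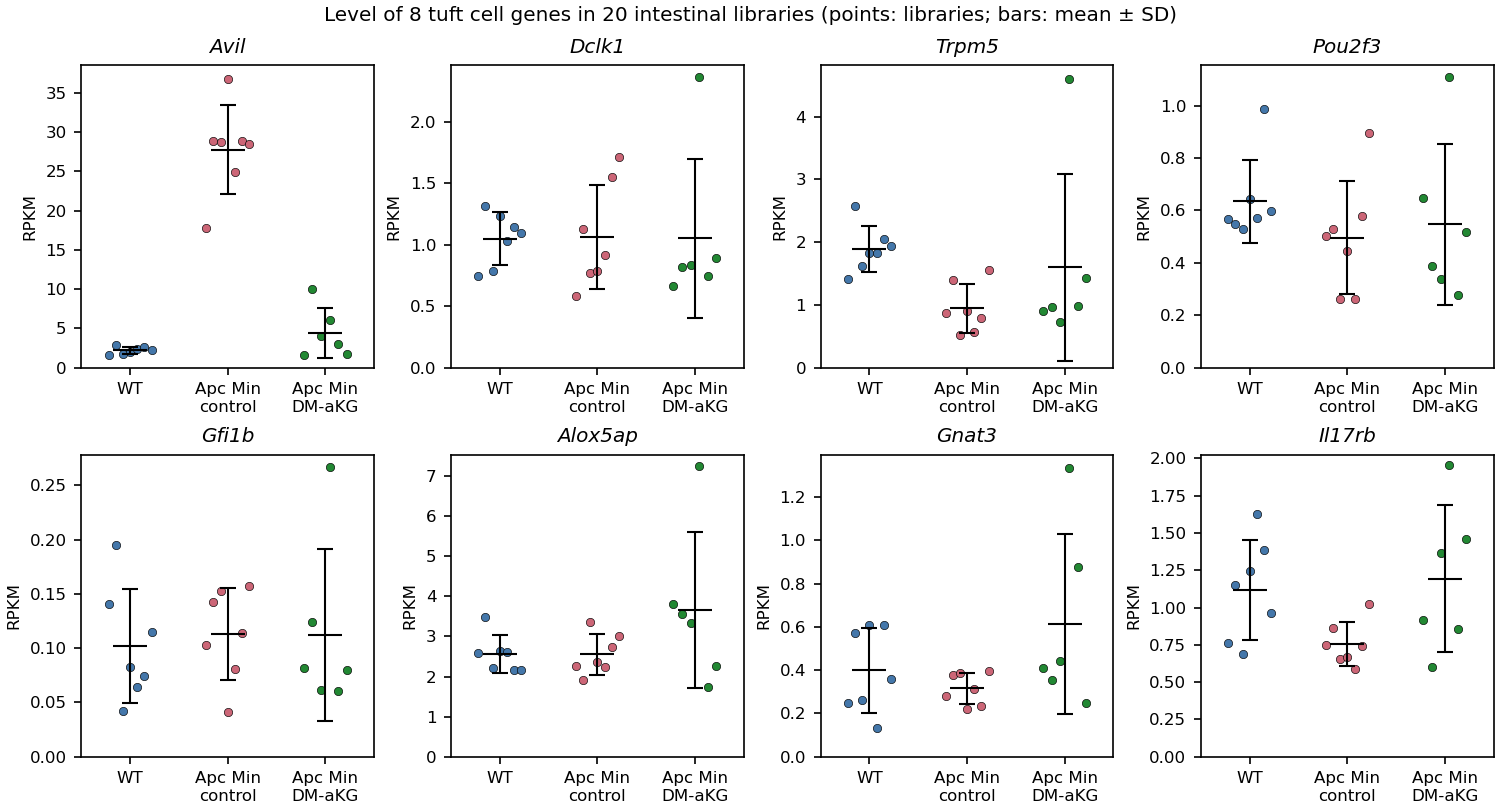
Level of each of the 8 genes in RPKM (y axes from 0, each with its own range) by group; points are libraries and bars are the mean ± SD. The 7 control libraries sit between 17.7 and 36.8 RPKM for Avil, above all others, while the groups overlap for the other genes.

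**Figure D2:**
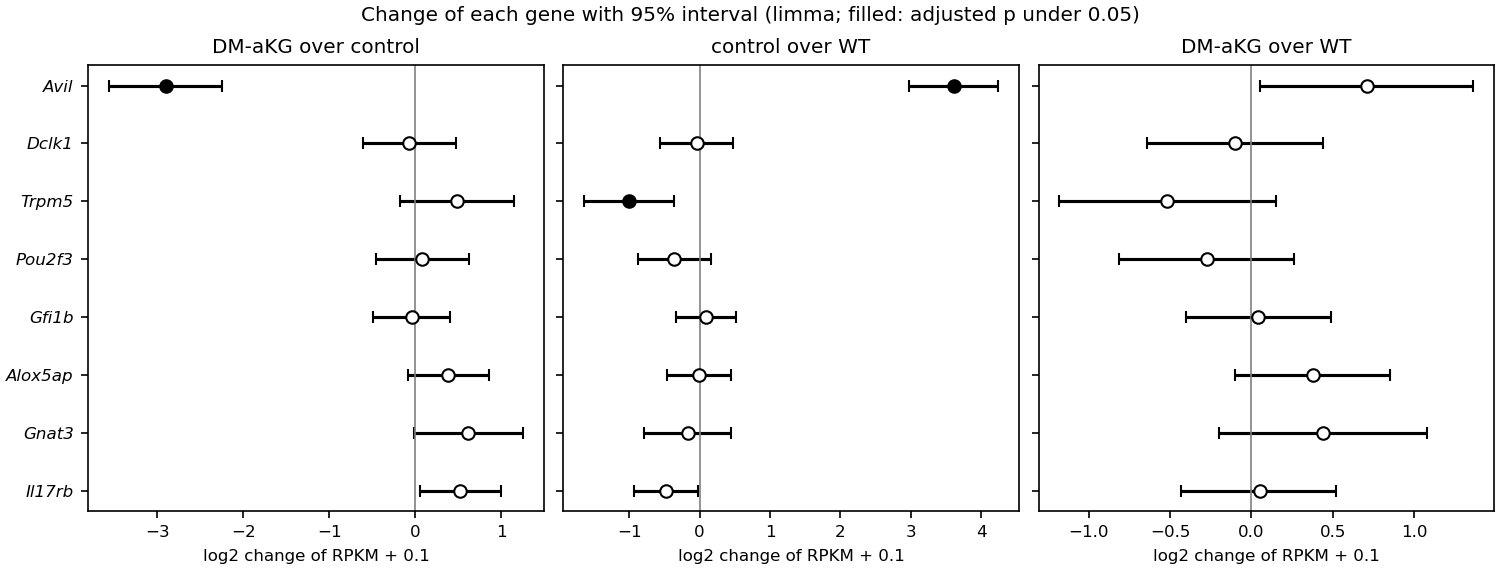
Log2 change of RPKM + 0.1 (x axes) for each gene with its 95% interval from limma, in the 3 comparisons; filled points have an adjusted p under 0.05. Avil stands at -2.90 and 3.61 in the first and second comparison, and Trpm5 in control over WT is the other filled point.

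Neither regulator of the set passed the test. Pou2f3, the lineage factor, was measured at 0.634 ± 0.159 RPKM (SD, n = 7) in WT, 0.496 ± 0.216 RPKM (SD, n = 7) in control libraries and, with DM-aKG, 0.547 ± 0.307 RPKM (SD, n = 6). Its log2 changes of -0.36 (control over WT) and 0.08 (DM-aKG over control) did not pass, and the 3 groups overlapped. Gfi1b, a zinc-finger repressor that marks tuft cells in the gut, was the lowest of the set in every library, at 0.041 to 0.267 RPKM, or an estimated 2 to 13 reads. No comparison of Gfi1b passed, and the 95% interval of its log2 difference was -0.34 to 0.52 for control over WT and -0.49 to 0.40 for DM-aKG over control.

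Trpm5, the channel at the end of the taste-type cascade, was the only gene besides Avil to pass. In WT it was lowest at 1.41, median 1.83 and highest 2.57 RPKM. In control libraries it was lowest at 0.516, median 0.866 and highest 1.55 RPKM. In DM-aKG libraries it was lowest at 0.72, median 0.969 and highest 4.59 RPKM. Control and WT libraries overlapped only slightly, and a single DM-aKG library, replicate 4, lay above all others. Trpm5 was 2-fold lower in control than in WT libraries (95% interval of the log2 change -1.64 to -0.36, limma adjusted p = 0.00903), a call that was lost with array weights (-0.79, limma adjusted p = 0.0603) and over replicates 1 to 4 only (-0.98, limma adjusted p = 0.117). Against WT the DM-aKG difference was -0.52 (limma adjusted p = 0.207) and, without DM-aKG replicate 4, -0.87 (limma adjusted p = 0.00748). Gnat3, the gustducin α subunit upstream of Trpm5, was at 0.399 ± 0.197 RPKM (SD, n = 7), 0.316 ± 0.0725 RPKM (SD, n = 7) and 0.612 ± 0.416 RPKM (SD, n = 6) in WT, control and DM-aKG libraries, and no comparison passed.

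Il17rb, a subunit of the receptor for IL-25, was at 1.12 ± 0.337 RPKM (SD, n = 7) in WT, 0.757 ± 0.147 RPKM (SD, n = 7) in control libraries and, with DM-aKG, 1.19 ± 0.495 RPKM (SD, n = 6). Its log2 difference was -0.48 for control over WT (limma adjusted p = 0.0699) and 0.52 for DM-aKG over control (limma adjusted p = 0.0852). Both lay close to the threshold: the first passed under 7 of 35 alternative settings and the second under 4. Actr8 overlaps Il17rb by 10220 bases on the opposite strand and rose in control (log2 change 0.53, limma adjusted p = 5.94e-05), the reverse of the sign of Il17rb; no source states whether reads were counted by strand.

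Dclk1, a microtubule-binding kinase, and Alox5ap, which presents arachidonate for leukotriene synthesis, differed little between control and WT. Dclk1 was at 1.05 ± 0.216 RPKM (SD, n = 7) in WT, 1.06 ± 0.425 RPKM (SD, n = 7) in control libraries and, with DM-aKG, 1.05 ± 0.646 RPKM (SD, n = 6). The 95% interval of its log2 difference between control and WT was -0.56 to 0.48. Alox5ap was at 2.56 ± 0.469 RPKM (SD, n = 7), 2.55 ± 0.505 RPKM (SD, n = 7) and 3.66 ± 1.94 RPKM (SD, n = 6) in WT, control and DM-aKG libraries. Its log2 difference of 0.38 for DM-aKG over control did not pass (limma adjusted p = 0.209) but passed under 4 of 35 alternatives, and was -0.40 over replicates 5 to 7 only (limma adjusted p = 0.196). Fibroblast markers summed to 73.8 to 145 RPKM in WT, 218 to 323 RPKM in control libraries and 105 to 196 RPKM with DM-aKG, and leukocyte markers to 126 to 187, 67 to 117 and 54.8 to 114 RPKM; Dclk1 is also known from stroma and Alox5ap from leukocytes, and the part of these cells in the levels was not tested.

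The order of levels within a library showed the departure of Avil directly. Alox5ap was highest of the set in 5 of the 7 WT libraries and Avil in the other two, while Avil led in all 7 control libraries. Avil made up 19.1 to 24.1% of the summed level of the 8 genes in WT, 76.5 to 87.1% in control and 17.2 to 59.7% in DM-aKG libraries. The summed level of the other 7 genes was 6.14 to 9.85 RPKM in WT, 4.97 to 8.73 RPKM in control libraries and 5.54 to 18.9 RPKM in DM-aKG libraries, with overlap between all groups.

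The difference in response between Avil and each other gene was then tested on the log2 ratio per library with 2-sided exact permutation tests, adjusted over 21 tests. The 7 ratios of a comparison share the same Avil values, so these tests largely repeat the Avil result and are not independent of each other. The genes were also chosen with earlier results of these data known. Relative to Trpm5, the Avil log2 ratio was 0.19 ± 0.11 (SD, n = 7) in WT, 4.80 ± 0.59 (SD, n = 7) in control and 1.41 ± 1.19 (SD, n = 6) in DM-aKG libraries. From WT to control the ratio rose against all 7 genes, by 3.52 (Gfi1b) to 4.61 (Trpm5), each with an exact p = 0.000583, the smallest these group sizes allow, and an adjusted p of 0.000874. From control to DM-aKG the ratio fell against all 7, with differences of -3.52 (Gnat3) to -2.84 (Dclk1) and the same exact p = 0.000583. Between DM-aKG and WT it was higher against Trpm5 (1.22, exact test, adjusted p = 0.00326) and Dclk1 (0.81, exact test, adjusted p = 0.0145) and did not pass against the other 5, at 0.27 to 0.98.

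**Figure D3:**
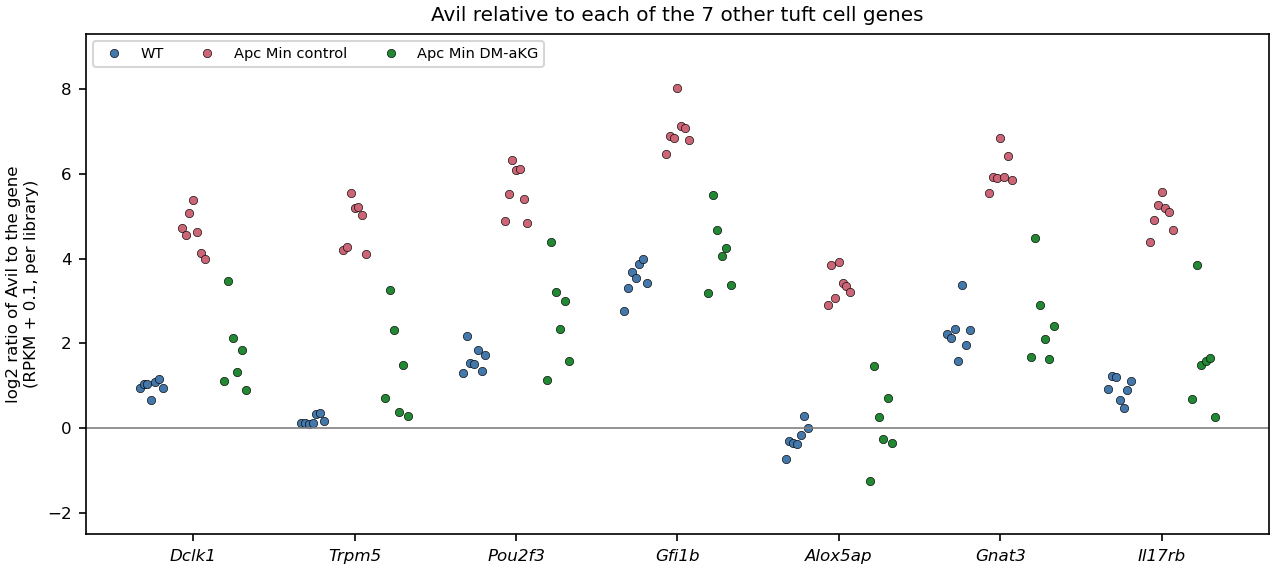
Log2 ratio of Avil to each of the 7 other genes (y axis, RPKM + 0.1) with 1 point per library, coloured by group. Control libraries lie above WT libraries for every gene, and the difference is 4.61 for Trpm5.

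Correlation within groups was then computed for each pair. Over the 21 pairs of genes other than Avil, Pearson's r of deviations from group means over 20 libraries was 0.28 to 0.78 with a median of 0.52, and 7 pairs passed by r and 4 by Spearman's rho (permutation tests adjusted over 28 pairs). Trpm5 and Pou2f3 had r = 0.78 (permutation adjusted p = 0.023) and rho = 0.68 (permutation adjusted p = 0.033), with r = 0.57 without the 2 libraries farthest from the median of Trpm5. The median over these pairs was 0.30 without DM-aKG replicate 4, the library with the highest level of 7 of the 8 genes in its group, all but Avil. For the 7 pairs with Avil, r was 0.01 to 0.43 with a median of 0.28 (0.15 without DM-aKG replicate 4), and 0 passed by r or by rho. Each pair was also taken without the 2 libraries farthest from the median of its first gene. The order then turned: the median r was 0.26 over the 21 pairs and 0.35 over the 7 pairs with Avil. Different libraries leave different pairs, and in most pairs with Avil the first gene is Avil, so these medians are not strictly alike. The difference between the 2 sets of pairs was not tested. Libraries share depth and composition, which move all genes of a library.

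**Figure D4:**
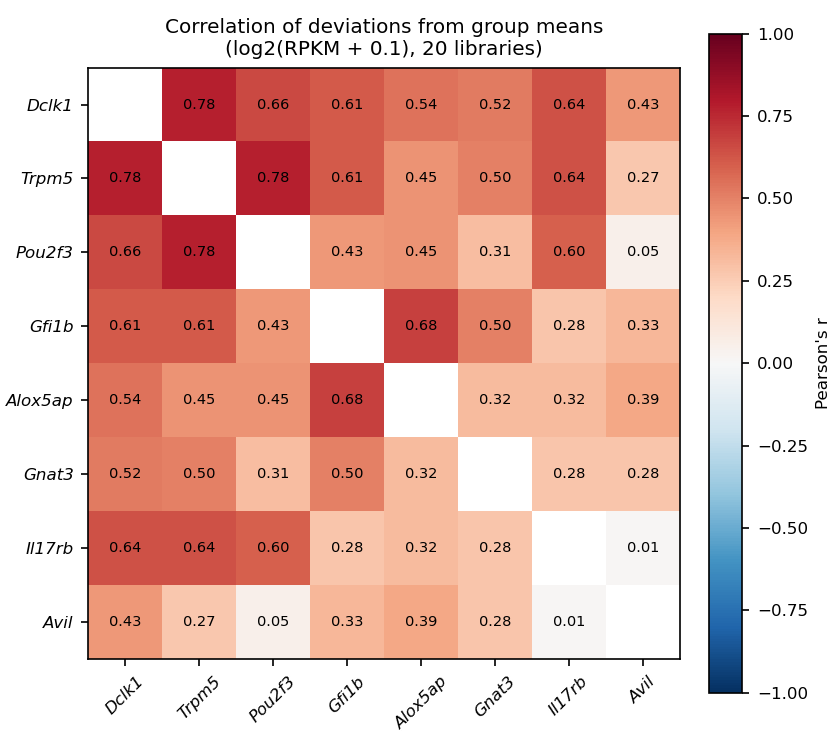
Pearson's r (colour and printed value) between deviations from group means of log2(RPKM + 0.1) for each pair of genes over 20 libraries. Trpm5 with Dclk1 and with Pou2f3 reach 0.78, and the Avil row lies between 0.01 and 0.43.

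Inside the WT group Avil varied with Trpm5. There r was 0.94 over 7 libraries (exact p = 0.00159, adjusted over 21 tests 0.0333), and 0.91 without the 2 farthest libraries. Spearman's rho was 0.89 (exact p = 0.0123, adjusted 0.258), which did not pass. Avil also had r = 0.85 with Dclk1 and 0.73 with Il17rb in WT (exact test, adjusted p = 0.192 and 0.453). Without the 2 farthest libraries these were 0.33 and 0.11. WT replicate 2 was highest in its group for 5 genes of the set, Avil, Trpm5 and Dclk1 among them. Within control libraries r between Avil and Trpm5 was 0.13 and within DM-aKG libraries 0.25; the difference of these values from that in WT was not tested.

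The genes most like Avil over the 20 libraries, of 12753 searched by Pearson's r of log2(RPKM + 0.1), were Prr18 (r = 0.990), Eya2 (0.983), Lysmd2 (0.982), Ush1g (0.980) and Tead2 (0.979). Eya2 encodes a transcriptional coactivator and phosphatase and Tead2 a TEA-domain factor. Eya2 was at 0.0989 ± 0.0287 RPKM (SD, n = 7) in WT, 3.61 ± 0.819 RPKM (SD, n = 7) in control libraries and, with DM-aKG, 0.406 ± 0.449 RPKM (SD, n = 6). Genes close to Trpm5 by the same measure included Strip2 (0.909), Pik3r5 (0.852), Lrmp (0.846) and Smpx (0.837), of which Lrmp is a known tuft cell marker. Strip2 was nearest to Pou2f3 (0.804), followed by Trpm5 (0.783). Pooled over the groups, r of Avil was -0.46 with Trpm5, -0.48 with Il17rb and -0.24 with Pou2f3, as a description.

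Wnt target and adenoma markers moved with Avil. Their 12 genes summed to 19.6 to 35.1 RPKM in WT, 232 to 504 RPKM in control libraries and 26.8 to 155 RPKM in DM-aKG libraries. All 12 rose in control, beside 40.4% of all genes, and all 12 fell with DM-aKG against control, beside 24.6%. The DM-aKG library with the highest Avil, replicate 2, was also the one at 155 RPKM. Replicate 4, next highest for Avil in that group at 6.06 RPKM, had a marker sum of 36.5 RPKM, below the group median of 38.4 RPKM. Mast cell and basophil markers summed to 0.677 to 2.9, 4.5 to 45 and 0.59 to 12.7 RPKM in the same order. Of 5 of them tested, 5 rose in control, beside 40.4% of all genes, and 4 fell with DM-aKG against control, beside 24.6%. Fibroblast markers had these signs too. Of 6 tested, 5 rose in control and 4 fell with DM-aKG, beside the same 40.4% and 24.6%, and 0 went the other way. Scn10a, a channel of the sensory neurons in which advillin is also known, was at 0 to 0.011 RPKM over all libraries. The 12 neuron markers together summed to 30.4 to 42 RPKM in WT, 30.6 to 42.4 RPKM in control libraries and 27.4 to 50 RPKM with DM-aKG. Of 11 tested, 1 rose in control and 1 fell, beside 40.4% and 15.2% of all genes. With DM-aKG against control 5 rose and 1 fell, beside 6.47% and 24.6% of all genes. Ret, a receptor tyrosine kinase of enteric neurons, had the signs of Avil (log2 changes 2.09 in control, limma adjusted p = 2.69e-09, and -1.09 with DM-aKG, limma adjusted p = 4.5e-05). Pan-epithelial markers were at 3686 to 5137 RPKM in WT, 3043 to 4343 RPKM in control libraries and 2119 to 2988 RPKM in DM-aKG libraries. The part of any of these cells in the Avil values was not tested. Tsfm overlaps Avil by 9423 bases on the opposite strand and was at 8.33 ± 1.86 RPKM (SD, n = 7) in WT and 6.89 ± 2.08 RPKM (SD, n = 7) in control, with a log2 change of -0.30 that did not pass.

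Relatives of Avil did not move as a family. Of 7 other villin and gelsolin family genes, 2 rose in control and 3 fell, beside 40.4% and 15.2% of all genes. With DM-aKG against control 3 rose and 2 fell, beside 6.47% and 24.6% of all genes. Vill, villin-like, was at 0.401 ± 0.0747 RPKM (SD, n = 7) in WT, 12.3 ± 1.66 RPKM (SD, n = 7) in control libraries and, with DM-aKG, 1.57 ± 1.15 RPKM (SD, n = 6) (log2 change 4.63 in control, limma adjusted p = 4.32e-10, and -3.18 with DM-aKG, limma adjusted p = 3.33e-07). Capg, an actin filament capping protein, changed by 2.60 and -2.69 on the log2 scale. Vil1, the villin of the enterocyte brush border, went the other way, from 931 ± 105 RPKM (SD, n = 7) in WT to 378 ± 106 RPKM (SD, n = 7) in control libraries and, with DM-aKG, 534 ± 100 RPKM (SD, n = 6), log2 changes of -1.35 and 0.53. Scin (-0.95 and 0.84) and Svil (-0.52 and 0.49), both actin regulators, had the signs of Vil1, and Gsn and Flii passed in neither of these comparisons.

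**Figure D5:**
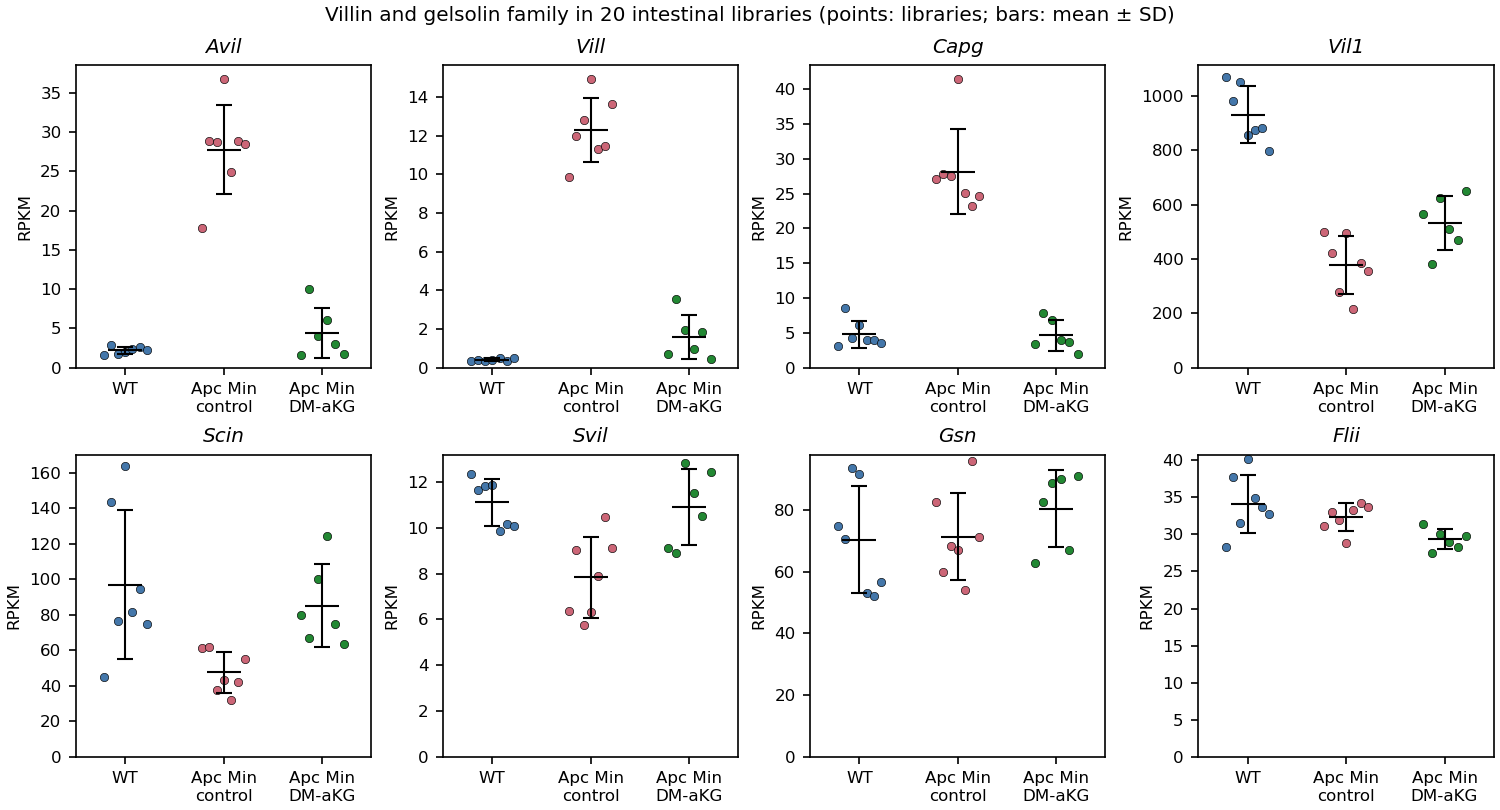
Level in RPKM (y axes from 0, each with its own range) of Avil and 7 related genes by group; points are libraries and bars are the mean ± SD. Vill and Capg are highest in control, like Avil, whereas Vil1 falls from 931 to 378 RPKM.

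Genes linked to tuft cells, in 5 lists of 68 genes of which 61 were tested, changed in both directions. Not all are tuft cell markers: the lists also hold genes known from other cells, such as Retnlb and Ascl2. In control against WT 21 rose and 16 fell, where 40.4% of all genes rose and 15.2% fell, with a median log2 change of -0.05 beside 0.23 over all genes. With DM-aKG against control 1 rose and 19 fell, where 6.47% of all genes rose and 24.6% fell, with a median of -0.08 beside -0.15. The count of 1 rising gene depended on scaling and was 3 with median-of-ratios scaling, 7 with quantile normalization and 15 relative to pan-epithelial genes, and the 16 falling genes in control became 25 with quantile normalization. These scalings moved the median log2 change of all genes from -0.15 to 0.02, 0.04 and 0.27 for DM-aKG over control, and from 0.23 to 0.02, -0.03 and 0.29 for control over WT.

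Of 9 tested taste-type signalling genes, 4 fell in control and 1 rose, beside 15.2% and 40.4% of all genes. Those that fell included Plcg2, a phospholipase C (log2 change -1.36, limma adjusted p = 9.47e-06), the succinate receptor Sucnr1 (-1.28, limma adjusted p = 0.00113) and Plcb2, the phospholipase of taste transduction (-1.25, limma adjusted p = 0.0027). They had the sign of Trpm5. Leukocyte markers fell in the same comparison, 11 of 15 with a median log2 change of -0.89, and their part in these values and in that of Trpm5 was not tested. With DM-aKG against control 2 of the 9 fell, the calcium channels Itpr3 (-0.75) and Itpr2 (-1.05), and 0 rose, beside 24.6% and 6.47% of all genes.

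Among 8 eicosanoid synthesis genes 4 rose in control and 0 fell, beside 40.4% and 15.2% of all genes. The lipoxygenase Alox12 rose from 0.289 ± 0.154 RPKM (SD, n = 7) to 1.89 ± 0.312 RPKM (SD, n = 7) and was at 0.365 ± 0.177 RPKM (SD, n = 6) with DM-aKG. The cyclooxygenase Ptgs1 rose by 0.82 on the log2 scale in control. It was not among the 2 that fell with DM-aKG, Alox12 (-2.18) and Alox15 (-1.80), beside 24.6% of all genes. Of 9 regulators, Sox4 (2.68), Sox9 (2.29), Runx1 (2.09) and Ascl2 (1.14) rose in control, beside 40.4% of all genes. All 4 fell with DM-aKG, beside 24.6% of all genes. These factors are also known from crypt progenitors. The secretory lineage factors Atoh1 (-0.79, limma adjusted p = 0.0131) and Gfi1 (-0.52, limma adjusted p = 0.0162) fell in control.

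In the type 2 circuit, 3 of 8 tested genes rose in control and 2 fell, beside 40.4% and 15.2% of all genes, the share of rising genes being near the first. With DM-aKG against control 1 rose (Tslp) and 4 fell (Retnlb, Areg, Il4ra and Il33), beside 6.47% and 24.6% of all genes. Retnlb, a goblet cell product induced by type 2 cytokines, had the largest change of the list in control (log2 5.43, limma adjusted p = 3.8e-07). Its WT mean was 0.0313 RPKM, below the 0.1 RPKM added before the logarithm. The cytokine receptor chain Il4ra rose by 0.97 in control. Il25, the tuft cell cytokine, was at 0 to 0.246 RPKM over all libraries. Among 27 other tuft markers 9 rose in control and 8 fell, beside 40.4% and 15.2% of all genes. With DM-aKG against control 0 rose and 7 fell, beside 6.47% and 24.6% of all genes, and those 7 were all among the 9. Cwh43 had the pattern of Avil, with log2 changes of 5.01 in control (limma adjusted p = 1.87e-10) and -3.58 with DM-aKG (limma adjusted p = 1.07e-07). Cd24a (2.09 and -1.80) and Krt18 (1.88 and -1.56), both widely expressed in epithelium, had these signs too. Espn, an actin bundler of microvilli, fell by 1.41 on the log2 scale in control (limma adjusted p = 1.64e-05).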

How the data were processed

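RNA was measured in 20 libraries, grouped by the labels' source names. The values used were RPKM that the authors deposited, read as RPKM from the values, since the table names no unit. The submitters' processing notes list the mm10 build, HISAT2 2.0.4, CASAVA 1.8 and Partek without a role; the strand setting is not given in the sources used here. RPKM divides by the library total, so large changes in abundant genes move all others. Steps between low values gave an estimated 21.15 to 28.65 M reads per library, but only 41.5 to 57.4% of values fell within 0.1 read of a whole number (20% if evenly spread), so no count test was run. No 2 libraries held identical values. After removal of 26 rows named as dates, genes with a mean of at least 0.1 RPKM over all libraries (15742 genes, all 8 members with a row) were fitted as log2(RPKM + 0.1) in 3 groups with limma 3.58.1 (R 4.3.3, trend and robust), 2-sided, with Benjamini-Hochberg adjustment over all genes and a threshold of 0.05. Folds on this scale understate changes of low genes. An earlier filter of 1 RPKM in 6 libraries, which 5 of the 8 pass, was an alternative with a pseudocount of 1. Ratios and correlations within groups of 6 or 7 libraries used exact permutation tests, and pooled correlations 100000 permutations within groups. Tests were checked on simulated data. The members and gene lists were chosen with earlier results of these data known. Named genes were the members, up to 4 called genes of smallest p per list and the 5 genes of highest r per member, given here for some members; 1 item is not reported here. Alternatives covered filter, pseudocount, scaling, limma settings, replicate sets, the replicate block and each library left out.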

Additional observations from a re-analysis of the deposited data

Results flagged for a closer look

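In 6 of 24 groups of libraries 1 library stood apart from the rest of its group by Dixon's criterion, where chance gives about 1 in 20. DM-aKG replicate 4 accounted for 4 of these: Dclk1 at 2.36 RPKM against a next value of 0.891, Trpm5 at 4.59 against 1.43, Gfi1b at 0.267 against 0.124 and Alox5ap at 7.26 against 3.81. The other two were WT replicate 6 for Pou2f3, at 0.986 RPKM against 0.642, and WT replicate 2 for Alox5ap, at 3.5 RPKM against 2.64. In DM-aKG replicate 4 mast cell and basophil markers summed to 12.7 RPKM and leukocyte markers to 114 RPKM, and erythroid and megakaryocyte markers, cells in which Gfi1b is also known, to 263 RPKM, the highest of that group in each case, and their part in these levels was not tested. Avil was not flagged in any group.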

How the results depend on the processing

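Avil kept its direction and its call for control over WT (3.16 to 3.72) and for DM-aKG over control (-3.53 to -2.48) in all 35 alternatives of each. Leaving out single libraries gave 3.53 to 3.71 and -3.20 to -2.67. For DM-aKG over WT, Avil passed relative to pan-epithelial genes (1.19) and ranged from 0.41 to 0.94 with single libraries left out; it was 1.13 over replicates 1 to 4 only and turned to -0.06 over replicates 5 to 7 only, neither past the threshold. Genes called numbered 2607 for DM-aKG over control over replicates 1 to 4 only and 5657 for control over WT over replicates 5 to 7 only. For DM-aKG over WT they numbered 10141 relative to pan-epithelial genes and 682 over replicates 5 to 7 only. Fewer libraries enter in that subset, and the DM-aKG group has no replicate 7. The same subset still called 3448 genes for DM-aKG over control. Its median log2 change over all genes for DM-aKG over WT was -0.004, beside 0.088 with all libraries. The cause of the lower number was not tested. Scaling moved the split of 1019 higher and 3880 lower genes for DM-aKG over control to 1899 and 2219 (median of ratios), 2262 and 2214 (quantile) and 3994 and 1061 (pan-epithelial). For control over WT, 6366 and 2395 became 4364 and 3815 (median of ratios) and 3890 and 4259 (quantile), and for DM-aKG over WT 3430 and 2445 became 9558 and 583 (pan-epithelial).

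Ratios of Avil passed against 0 genes in each comparison over replicates 5 to 7 only, where the smallest exact p is 0.1. Between DM-aKG and WT they passed against 1 to 5 genes with single libraries left out. The median correlation was 0.29 for Avil and 0.60 for the other pairs with a pseudocount of 1. It was 0.35 and 0.26 without the 2 farthest libraries, chosen for each pair by its first gene. Without DM-aKG replicate 4, an alternative chosen after seeing the data, it was 0.15 and 0.30. Same-numbered libraries did not deviate together throughout (r -0.374 to 0.519), and most did not correlate best with their own number. Exceptions were replicate 5 of DM-aKG and control (0.519, best other number 0.419) and replicate 1 of control and WT (0.358, best other number 0.214). The replicate block called 1049 higher and 4050 lower genes between DM-aKG and control, 6698 and 2516 between control and WT and 3902 and 2582 between DM-aKG and WT. With it, Avil for DM-aKG over WT was 0.72 (limma adjusted p = 0.0403), and its ratio passed against 0 genes there. Other calls that changed were those of Il17rb, Alox5ap, Gnat3, Pou2f3 and Trpm5: relative to pan-epithelial genes, DM-aKG over control passed for Il17rb (0.94), Alox5ap (0.80), Gnat3 (1.03) and Trpm5 (0.90), and with quantile normalization control over WT passed for Pou2f3 (-0.71). The cause was not tested. Low read numbers limit Gfi1b and Gnat3.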
